A study of Mus musculus with 12 samples.

Results

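MC38 mouse colon cancer cells that express the short isoform of CEACAM1 (CEACAM1-S) were compared with control MC38 cells on Illumina mouse bead arrays, over 4 arrays of each line. The labels describe the CEACAM1-S cells as expressing that isoform and the control cells as devoid of CEACAM1. Both lines are metastatic, syngeneic to C57BL/6 mice and were grown for 72 h with 10% serum and selection antibiotics. The sources used here do not give the promoter that drives the isoform, nor whether each line is a clone or a pool. The series has 12 arrays, and its remaining 4 came from cells that express the long isoform (CEACAM1-L), grown alike. The labels do not say whether the 4 arrays of a line came from separate cultures, and p-values then reflect the spread among the arrays alone, possibly a technical one. Of the 45281 probes on the array, 15328 were detected (detection p-value below 0.05) on 4 or more of these 8 arrays and made up the comparison; they represented 8671 named genes. The detection p-value ranks a probe's signal against beads that match no transcript. Members detected on exactly 4 of the 8 arrays numbered 752 and averaged 4.63 to 6.05 log2 units, and the 836 probes detected on 3, just outside the rule, averaged 4.56 to 5.07.

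CEACAM1 is an immunoglobulin-like adhesion receptor of epithelial, endothelial and immune cells that binds other CEACAM1 molecules on neighbouring cells. Alternative splicing gives its long isoform a cytoplasmic tail with tyrosine motifs that recruit the phosphatases SHP-1 and SHP-2, and the short isoform lacks these motifs and keeps a short tail that binds calmodulin and actin-associated proteins. In the colon the protein is known for its changing level as epithelium becomes tumour tissue. The title of the series names the long isoform together with decorin and EphA2.

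All values below are normalized log2 signals, or differences between them as CEACAM1-S minus control with the standard error (SE) of the fit. A gene passed when limma's adjusted p was under 0.05 over all 15328 probes, and it was read by its brightest member probe. Between 15010 and 16071 probes were detected on CEACAM1-S arrays and 14717 to 15929 on control arrays. Across members, arrays correlated at r between 0.9847 and 0.9925 within CEACAM1-S, 0.9834 and 0.9919 within control, and 0.9697 and 0.9787 between the lines. Each line holds 2 arrays with a highest raw signal of 30290 units or more and 2 with 27138 or less. Of the 9 epithelial marker genes with a probe, Epcam, Krt18, Krt19, Krt20 and Vil1 were detected on none of the 8 arrays, and Krt8 was tested. Of 22 immune marker genes with a probe, 17 were likewise detected on none.

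CEACAM1-S cells differed from control cells at 3129 of the 15328 probes (20.4%), of which 1611 were higher (10.5%) and 1518 lower (9.9%). A difference of at least 2-fold was reached by 357 probes (2.33%), 212 higher (1.38%) and 145 lower (0.946%). At the level of genes, 1044 were higher (12%) and 978 lower (11.3%) of 8671, with a median log2 difference of -0.0115 over all genes. These gene shares are the background against which each group of genes below is read. A count from the 2 brighter arrays of each line alone was 2668 probes, and from the 2 dimmer arrays 1212. With arrays scaled to a common median in place of quantile normalization, 385 probes passed, and the median SE was 0.33 against 0.165. No gene described below as higher or lower whose values were followed under the alternatives changed sign in any alternative that measured it. Of 58 such genes with more than 1 member probe, 16 had another probe that did not pass.

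**Figure D1:**
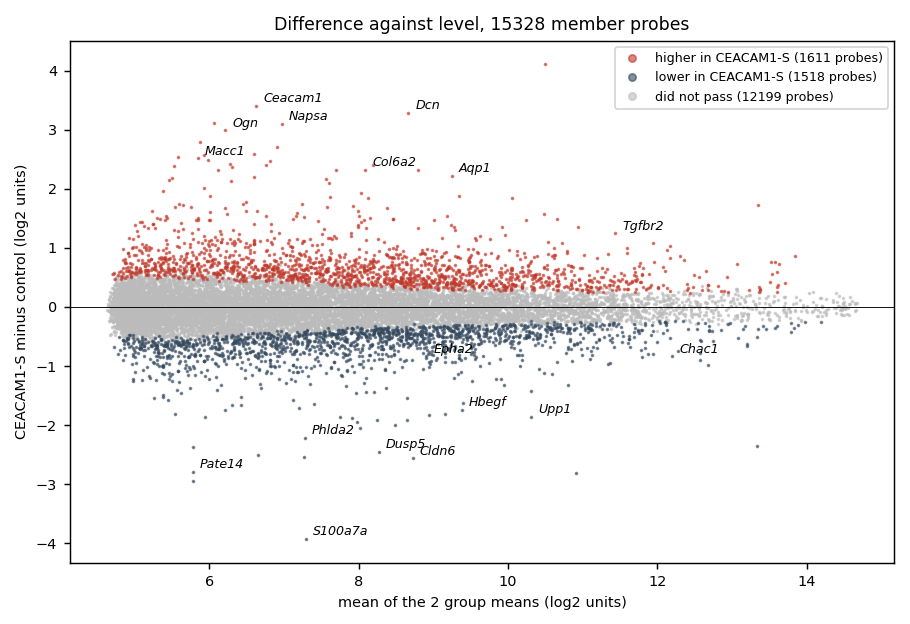
Log2 difference (CEACAM1-S minus control, vertical axis) against the mean of the 2 group means (log2 units, horizontal axis) for the 15328 member probes, with 1611 higher probes in red, 1518 lower probes in dark blue and the rest in grey. The labelled genes run between 3.40 for Ceacam1 and -3.93 for S100a7a.

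Ceacam1, the gene that sets the lines apart, read 8.58, 7.81, 8.24 and 8.68 log2 units on the CEACAM1-S arrays, against 4.87, 4.99, 4.88 and 4.96 on the control arrays. The groups did not overlap, the CEACAM1-S arrays spread more widely, and the probe was detected on all 4 control arrays at a level in the range of the dimmest members. The difference was 3.40 ± 0.17 (SE), a 10.6-fold higher signal (adjusted p = 1.01e-12). A pair of further probes for Ceacam1 was detected on all 4 CEACAM1-S arrays and on no control array, with bounds of at least 5.54-fold and 3.31-fold higher. The words "at least" mark a fold where a probe was below detection on every array of the dimmer line, whose level was then set to the higher of its own signal and the lowest detected signal. The position of the probes within the transcript was not analysed here. Without background correction, the difference of the first probe was 1.91.

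In the list of CEACAM genes and of genes whose products are known to bind the cytoplasmic tails of CEACAM1, 14 were tested. Ceacam1 itself and 3 partner genes were higher and 2 partner genes were lower, while scaling to the median gave 2 higher and 0 lower in the whole list. Ptpn6, which encodes the phosphatase SHP-1, read 6.62, 6.85, 7.0 and 7.06 in CEACAM1-S cells, against 5.66, 5.91, 6.12 and 5.53 in control cells. All 4 CEACAM1-S values lay above all control values, and Ptpn6 was 2.11-fold higher (1.08 ± 0.18, adjusted p = 0.000104). Ptpn11, which encodes SHP-2, differed by -0.10 and did not pass. The kinase gene Src fell by 0.64 on the log2 scale (adjusted p = 0.000696), at 8.22 ± 0.20 in CEACAM1-S and 8.86 ± 0.09 in control cells (SD, n = 4 each). Pxn, whose product paxillin is a focal adhesion adaptor, was lower at -0.38. Ctnnb1 (beta-catenin) and Tpm1 (tropomyosin 1) were higher at 0.61 and 0.54, and both lie on chromosome 9, which is described further down. The other probes of Ctnnb1, at 0.11, 0.30 and 0.34, did not pass.

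The title's choice of decorin and EphA2 may rest on the same arrays, in which case their values are no independent evidence. Dcn, the gene of decorin, a matrix proteoglycan that binds collagen fibrils, read 10.56, 10.14, 10.29 and 10.24 in CEACAM1-S cells, against 7.05, 6.87, 6.75 and 7.42 in control cells. The lowest CEACAM1-S array lay well above the highest control array, and the difference was 3.29 ± 0.13 (9.75-fold, adjusted p = 5.35e-15). Ogn, which encodes osteoglycin, another small leucine-rich proteoglycan, was at 7.50, 7.89, 7.62 and 7.79 in CEACAM1-S cells, against 5.14, 4.47, 4.36 and 4.87 in control cells, and only 1 of the control arrays detected it. Both rose, Ogn by 2.99 ± 0.18 (adjusted p = 1.67e-11), and Bgn (biglycan), the only other tested member of the family of 3, differed by 0.19 and did not pass. Epha2, a receptor for ephrin-A ligands, read 8.68, 8.49, 8.26 and 8.52 in CEACAM1-S cells, against 9.28, 9.34, 9.30 and 9.37 in control cells. It fell by 0.84 (SE 0.13, adjusted p = 3.13e-05), whereas scaling to the median gave -0.87 with an adjusted p = 0.221. Ephb4, a receptor for ephrin-B2, was higher by 0.70, and 7 of the 9 tested Eph and ephrin genes did not pass.

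The largest rises among named genes, after Ceacam1 and Dcn, were in secreted, transport and signalling genes of no single group. Napsa, which encodes napsin A, an aspartic protease known from lung and kidney, read 8.62, 8.17, 8.86 and 8.41 in CEACAM1-S cells, against 5.59, 5.58, 5.41 and 5.09 in control cells. The groups were more than 2 log2 units apart, and the difference was 3.10 ± 0.20 (8.55-fold, adjusted p = 5.36e-11). The intestinal zinc importer gene Slc39a4 was at 7.92, 7.73, 7.95 and 7.97 in CEACAM1-S cells, against 5.23, 5.44, 5.03 and 5.50 in control cells, a rise of 2.6 ± 0.17. Macc1, a regulator of MET expression named for its association with colon cancer metastasis, was detected on all CEACAM1-S arrays (6.76, 7.28, 7.53 and 6.83) and on no control array, at least 4.92-fold higher. Met itself differed by -0.43 and did not pass. Fcgrt, the heavy chain of the neonatal Fc receptor, read 8.09, 7.92, 8.07 and 8.07 in CEACAM1-S cells, against 5.53, 5.62, 5.67 and 5.45 in control cells. It was among the tightest of the large differences, at 2.47 ± 0.13 (adjusted p = 1.29e-12).

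The others among the 15 largest rises ranged between 2.22 and 2.49. Aqp1, the water channel aquaporin 1, read 10.40, 10.28, 10.18 and 10.56 in CEACAM1-S cells, against 7.70, 8.18, 8.46 and 8.20 in control cells. Alox5ap, needed for leukotriene synthesis, averaged 8.85 ± 0.24 in CEACAM1-S cells and 6.53 ± 0.23 in control cells (SD, n = 4 each). Pla1a, a phosphatidylserine-specific phospholipase, averaged 7.27 ± 0.26 in CEACAM1-S cells and 4.95 ± 0.33 in control cells. Tmem119, a membrane protein known from osteoblasts and microglia, rose by 2.40, the major facilitator gene Mfsd6 by 2.41 (0.40 with its other probe, which did not pass) and Dennd2a, a Rab exchange factor, by 2.49. For Acot1, a cytosolic acyl-CoA thioesterase, the brightest probe was detected on no control array, which puts that probe at least 3.78-fold higher. Its other member probe, detected on 2 control arrays, differed by 0.41 and did not pass. Of further genes with a probe detected on no control array, Tns1 (tensin 1, an actin and integrin linker) was at least 3.44-fold higher. Islr was at least 2.94-fold higher, Cdyl at least 2.63-fold and Arhgef6, a Rac and Cdc42 exchange factor, at least 2.35-fold. In all, 65 member probes were detected on every CEACAM1-S array and no control array, and 54 of them passed, against 10.5% higher among all probes. These probes were picked by detection on the same arrays, so their passing is no separate support.

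**Figure D2:**
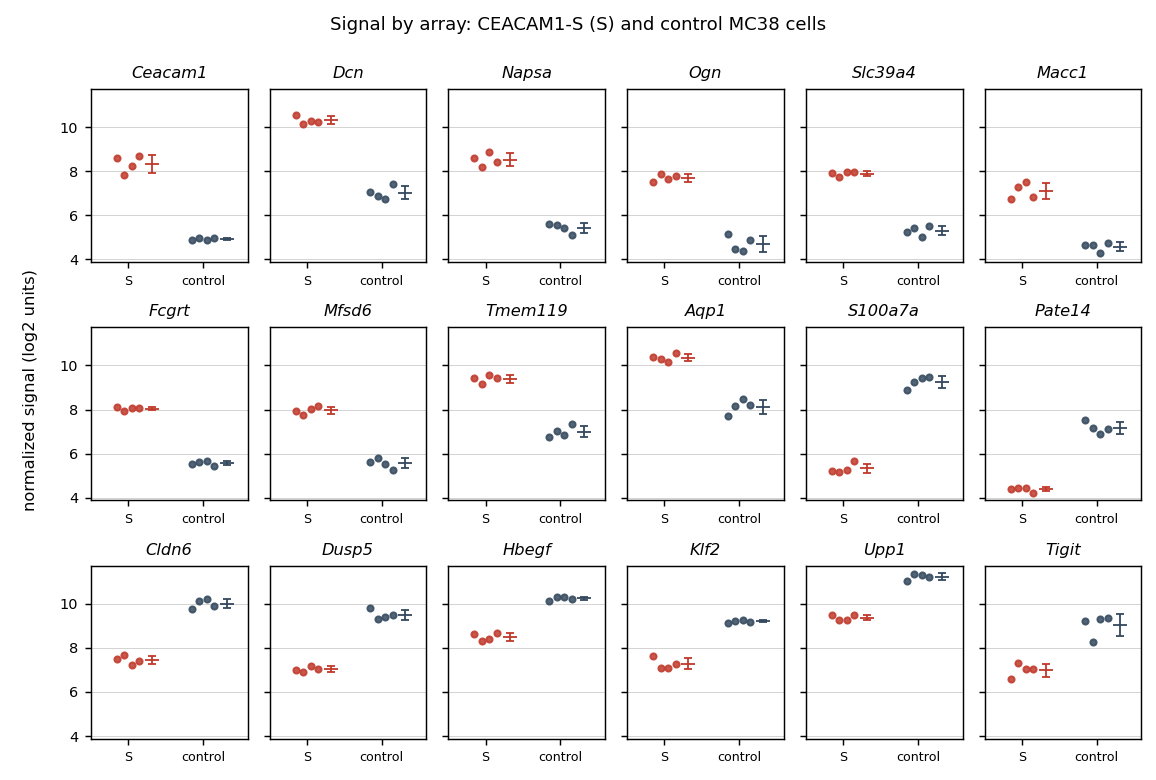
Normalized signal (log2 units) of 18 genes on each of the 4 CEACAM1-S arrays (red, left) and the 4 control arrays (dark blue, right), with the mean ± SD beside the points. No gene shown has overlapping groups, but most were picked for that trait, which 24.4% of all 8671 tested genes have. The first 10 are higher in CEACAM1-S cells and the other 8, S100a7a to Tigit, are lower.

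The largest fall among named genes was that of S100a7a, a psoriasin-family S100 protein of inflamed epithelium, at 5.23, 5.17, 5.26 and 5.65 in CEACAM1-S cells, against 8.86, 9.25, 9.42 and 9.48 in control cells. The difference was -3.93 ± 0.19, a 15.2-fold lower signal (adjusted p = 3.8e-13), and no array of either line came near the other line. Of the 18 tested S100 and annexin genes, it stood with a single other fall, S100pbp at -0.44, beside rises of Anxa1 (0.88) and S100a4 (0.66); the S100pbp call was lost under 14 alternatives and the S100a4 call under 8. Cldn6, a tight junction claudin of embryonic epithelium, read 7.48, 7.67, 7.22 and 7.39 in CEACAM1-S cells, against 9.77, 10.11, 10.22 and 9.91 in control cells. It fell by 2.56 (SE 0.12), and with Krt8 (-1.03) and Pkp3 (-0.86, a desmosomal plakophilin) it made up the 3 falls among 13 tested epithelial junction genes, none of which rose.

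Further large falls included genes of metabolism, immune recognition and cardiac peptides. Cyp3a13, a xenobiotic-oxidizing cytochrome, was at 6.34, 5.44, 6.07 and 6.15 in CEACAM1-S cells, against 8.46, 8.53, 8.50 and 8.65 in control cells, with the CEACAM1-S arrays more scattered than the control ones, and it fell by 2.54. Upp1 (uridine phosphorylase) fell by 1.86 (SE 0.10), Nppb, which encodes the natriuretic peptide BNP, by 2.0, and the imprinted growth restrainer Phlda2 by 2.21. Tigit, an inhibitory receptor better known from T and NK cells, read 6.58, 7.30, 7.04 and 7.03 in CEACAM1-S cells, against 9.23, 8.27, 9.32 and 9.35 in control cells. Its control 2 array was the low one, yet still above every CEACAM1-S array, and Tigit fell by 2.05 (SE 0.19). Pvr, the gene of a TIGIT ligand, fell by 0.97, at 7.55 ± 0.09 in CEACAM1-S and 8.52 ± 0.18 in control cells (SD, n = 4 each). Pate14 was not detected on CEACAM1-S arrays, which puts it at least 5.24-fold lower, and the cytokine gene Csf2 (GM-CSF) at least 2.38-fold lower, at 4.69, 4.53, 4.27 and 4.47 in CEACAM1-S cells, against 5.85, 5.92, 5.91 and 6.44 in control cells. Of 28 probes detected on every control array and no CEACAM1-S array, 24 passed, against 9.9% lower among all probes. They too were picked by detection on the same arrays, so their passing is no separate support.

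Genes of the growth factor response were lower as a group. Early growth response and AP-1 genes are switched on within minutes by ERK signalling, and their products include transcription factors. Of 25 tested, 15 were lower and 2 higher, with a median difference of -0.62, against 11.3% lower and a median of -0.0115 over all genes. Klf2 read 7.65, 7.11, 7.09 and 7.28 in CEACAM1-S cells, against 9.15, 9.22, 9.25 and 9.19 in control cells. Jun, a subunit of AP-1, read 8.69, 8.56, 8.77 and 8.68 in CEACAM1-S cells, against 9.72, 9.68, 9.99 and 10.13 in control cells. All CEACAM1-S arrays lay below all control arrays for both genes, and Klf2 fell by 1.92 (SE 0.15, adjusted p = 1.93e-09) and Jun by 1.20 (SE 0.12, adjusted p = 5.34e-08). Fosb fell by 1.25 (SE 0.22), although 2 of its CEACAM1-S arrays were below detection, and Phlda1 fell by 1.10. The remaining falls were Nr4a2, Myc, Fos, Ier3, Ier2, Junb, Egr1, Klf6, Zfp36, Etv5 and Klf4, between -1.10 and -0.48. Etv1 (1.00) and Fosl2 (0.77, on chromosome 5) were the 2 rises, and Atf3, Srf, Jund and Egr3 were among 8 that did not pass.

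The list of ERK feedback inhibitors, mainly dual-specificity phosphatases and Sprouty proteins, numbered 8 lower and 1 higher of 18, with a median of -0.35. It also holds other signalling inhibitors, such as Rasa1 and Lrig1, so not every member need be a gene that ERK signalling induces. Dusp5, a nuclear ERK phosphatase, was at 7.02, 6.91, 7.19 and 7.05 in CEACAM1-S cells, against 9.79, 9.30, 9.39 and 9.50 in control cells. It fell by 2.45 (SE 0.13, 5.46-fold, adjusted p = 1.29e-12), while Dusp14, Dusp8 and Dusp2 fell by 0.89, 0.80 and 0.65 and Dusp6, Errfi1, Dusp7 and Rasa1 by 0.57, 0.55, 0.45 and 0.36. Dusp4 (-0.36), Dusp1 (-0.05) and Spry4 (-0.01) did not pass, and Lrig1 was higher at 0.50. Among 5 tested EGF family ligands and ErbB receptors, Hbegf, the gene of heparin-binding EGF, read 8.63, 8.30, 8.42 and 8.69 in CEACAM1-S cells, against 10.14, 10.30, 10.31 and 10.24 in control cells. Hbegf fell by 1.74 (SE 0.13), Btc (betacellulin) by 0.67 and Nrg1 (neuregulin 1) by 0.64, with the Btc call lost on the 2 brighter and on the 2 dimmer arrays of each line and the Nrg1 call on the 2 dimmer. Scaling to the median gave 7 falls in the AP-1 list, 1 among feedback inhibitors and 2 among the ligands, and the dimmer arrays gave 12, 4 and 1.

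**Figure D3:**
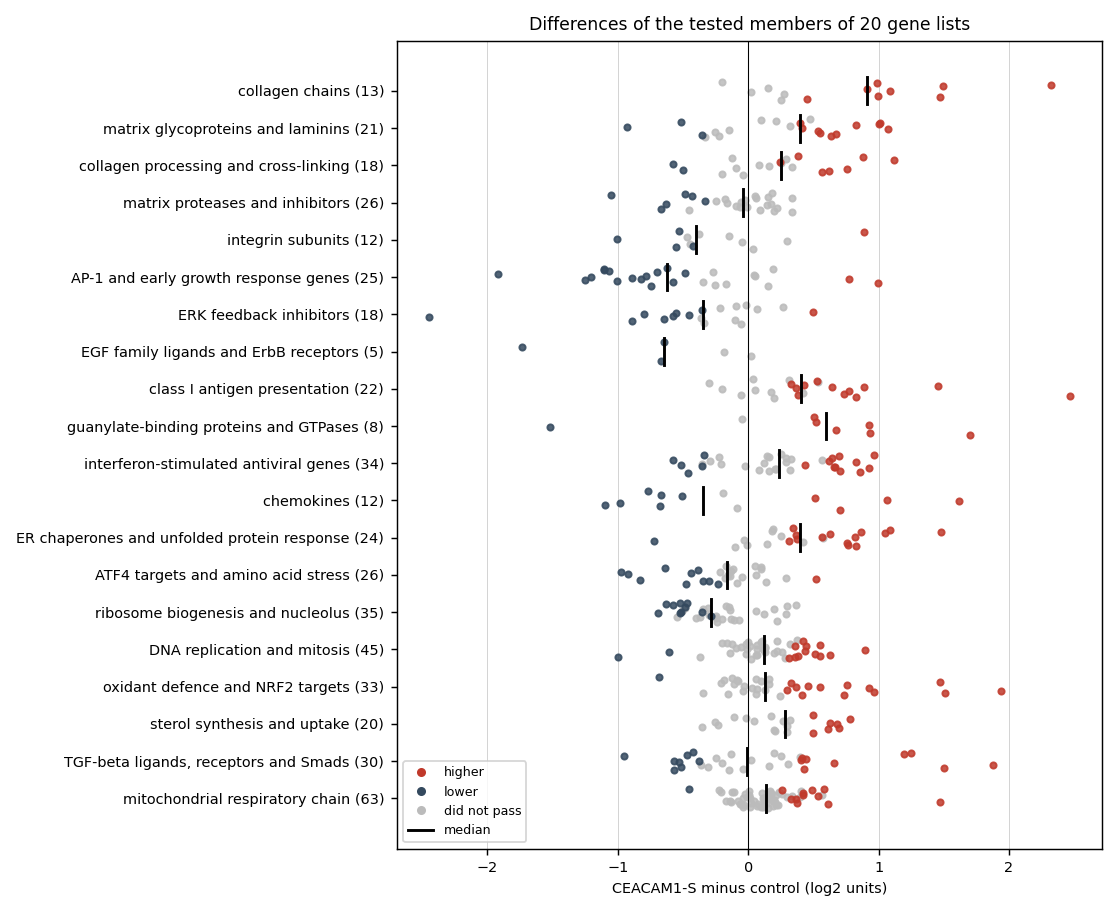
Log2 differences (CEACAM1-S minus control, horizontal axis) of the tested members of 20 gene lists, 1 point per gene, with higher genes in red, lower genes in dark blue, genes that did not pass in grey and the list's median as a black bar; the number tested is in brackets. Collagen chains, with a median of 0.91, sit farthest to the right, and EGF family and AP-1 genes, with medians of -0.64 and -0.62, farthest to the left.

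Genes of structural matrix proteins were higher in CEACAM1-S cells. Of 13 tested collagen chains, 8 were higher and 0 lower, with a median of 0.91 (12% of all genes were higher). The collagen VI chains led: Col6a2 read 9.37, 8.97, 9.21 and 9.44 in CEACAM1-S cells, against 6.96, 7.01, 7.0 and 6.74 in control cells, and Col6a1 read 11.52, 11.21, 11.43 and 11.42 in CEACAM1-S cells, against 10.11, 9.91, 9.87 and 9.71 in control cells. Both rose on every CEACAM1-S array, by 2.32 ± 0.14 (adjusted p = 1.87e-11) and 1.49 ± 0.10 (adjusted p = 5.36e-11). Col1a1 rose by 1.47, at 6.15 ± 0.22 in CEACAM1-S and 4.67 ± 0.30 in control cells (SD, n = 4 each), where 2 of 4 control arrays detected it. Col3a1 was not detected in control cells and was at least 1.57-fold higher, and the other rises were Col4a5 (1.09), Col7a1 (0.99, on chromosome 9), Col5a1 (0.91) and Col18a1 (0.45). The basement membrane chains Col4a1 and Col4a2, at 0.27 and 0.02, did not pass.

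Enzymes that modify and cross-link collagen numbered 7 higher and 2 lower of 18. Plod1, a lysyl hydroxylase, rose by 1.12 (SE 0.23), with CEACAM1-S arrays between 7.48 and 8.22 and control arrays between 6.12 and 7.37. P3h1, Crtap and Ppib, whose products form the prolyl 3-hydroxylation complex of collagen I, rose by 0.75, 0.57 and 0.88, and the cross-linking enzyme gene Loxl1 by 0.62, at 10.94 ± 0.05 in CEACAM1-S cells and 10.32 ± 0.06 in control cells (SD, n = 4 each). Crtap, Ppib and Loxl1 lie on chromosome 9, and without the genes of chromosomes 5 and 9 the list held 3 rises. P4ha2 and Loxl4 were lower, at -0.58 and -0.50. Matrix glycoproteins and laminins counted 10 higher and 3 lower of 21, with a median of 0.39. Thbs1 (thrombospondin 1) read 7.68, 7.59, 7.57 and 7.58 in CEACAM1-S cells, against 6.53, 6.40, 6.56 and 6.89 in control cells, and rose by 1.01 ± 0.15. Lamb2 (laminin beta 2, on chromosome 9) rose by 1.07, Tgfbi by 1.00 and Sparc (osteonectin) by 0.82. Matn2 (matrilin 2) fell by 0.93 with its brightest probe (-0.05 with the other, which did not pass), and Fn1 (fibronectin), at -0.25, did not pass. This list held 8 rises without the genes of chromosomes 5 and 9. Scaling to the median gave 5 rises of collagen chains and 0 in the other 2 lists, and the dimmer arrays gave 5, 3 and 5.

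Of 26 tested matrix proteases and inhibitors, 0 were higher and 6 lower, which gave a median of -0.04. The lower genes numbered 2 without CEACAM1-S array 3, 3 without CEACAM1-S array 2 or without control array 3, 2 on the dimmer arrays and 0 with scaling to the median. Plaur, the urokinase receptor, was at 7.13, 7.08, 7.45 and 7.10 in CEACAM1-S cells, against 8.17, 8.33, 8.06 and 8.41 in control cells, and fell by 1.05 (SE 0.15, adjusted p = 1.26e-05). Its ligand gene Plau fell by 0.43, the inhibitor gene Timp1 by 0.48, Adamts1 by 0.67, Mmp10 by 0.63 and Mmp2 by 0.33. The groups overlapped for Mmp10, whose call was lost under 13 alternatives, and the Adamts1 call was lost under 5. Integrin subunits, the cell surface receptors for these matrix proteins, numbered 4 lower and 1 higher of 12. Itgav, at 6.44, 6.39, 6.37 and 6.32 in CEACAM1-S cells, against 7.59, 7.16, 7.71 and 7.10 in control cells, fell by 1.01 (SE 0.17), but its other member probe, detected on all 8 arrays, differed by -0.06 and did not pass. Itga3, Itgb7 and Itga5 fell by 0.56, 0.53 and 0.42, and of the integrin falls 2 were counted on the dimmer arrays and 0 with scaling to the median. Itgb5 rose by 0.88, with all CEACAM1-S arrays above all control arrays. The hyaluronan receptor gene Cd44 fell by 0.96 (SE 0.09), at 10.86 ± 0.08 in CEACAM1-S and 11.82 ± 0.10 in control cells (SD, n = 4 each).

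Genes used as fibroblast markers moved with these matrix genes: of 7 tested, 6 were higher (Dcn, Col1a1, Mfap5, Pi16, Col3a1 and Fbln1) and Pdgfra, at 0.08, did not pass. Mfap5, Pi16 and Col3a1 were detected on no control array, so they entered the test through the CEACAM1-S arrays alone. Of the 3 markers detected on all 8 arrays, 2 were higher. Dpt, Lum, Fap, Thy1, Postn and Tcf21 were detected on none of the 8 arrays. The summed raw signal of the 15 fibroblast marker genes with a probe was 2441 to 4231 units on CEACAM1-S arrays and 1535 to 2199 on control arrays. Their part in the matrix result was not tested, a change in the share of such cells and one in RNA per cell cannot be told apart in bulk RNA, and Dcn, Col1a1, Col3a1 and Fbln1 are members of the matrix lists themselves. Of 6 tested endothelial markers, Flt1 (-1.13), Egfl7 (-0.92) and Cdh5 (-0.70) were lower, and Tek (-0.18), Kdr (0.06) and Eng (0.16) did not pass. Only Egfl7 was detected on all 8 arrays, and the dimmer arrays gave 1 fall. The summed raw signal of the 15 endothelial marker genes with a probe overlapped between the lines, at 1533 to 2036 units on CEACAM1-S arrays and 1629 to 2565 on control arrays. Mesenchymal and contractile genes numbered 4 higher and 4 lower of 24. Counts were 2 higher without CEACAM1-S array 2 or 3, 2 lower without control array 3, 3 higher and 1 lower on the dimmer arrays, and 1 higher and 0 lower with scaling to the median. Mylk, the myosin light chain kinase gene, rose by 1.75 (SE 0.16), at 8.12, 7.96, 8.15 and 8.21 in CEACAM1-S cells, against 6.15, 6.50, 6.34 and 6.45 in control cells. The transcription factor genes Twist2, Snai2 and Prrx1 fell by 0.81, 0.53 and 0.50, and Vim (-0.11) and Acta2 (-0.16) did not pass.

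TGF-beta family genes numbered 9 higher and 8 lower of 30. The counts were 4 higher and 0 lower with scaling to the median, and 4 higher and 1 lower on the dimmer arrays. The higher genes numbered 5 without CEACAM1-S array 4, and the lower genes 4 without CEACAM1-S array 2 or control array 3 and 5 without control array 2 or 4. The ligand genes Bmp4 and Tgfb3 rose by 1.5 ± 0.15 and 1.20 ± 0.16: Bmp4 read 9.19, 8.68, 8.72 and 9.03 in CEACAM1-S cells, against 6.94, 7.52, 7.67 and 7.48 in control cells. Tgfb1 fell by 0.47. The receptor gene Tgfbr2 read 12.21, 11.74, 12.09 and 12.18 in CEACAM1-S cells, against 10.96, 10.76, 10.74 and 10.76 in control cells. It rose by 1.25 ± 0.10 (adjusted p = 1.9e-09) and lies on chromosome 9, as do Smad3 (0.41) and Acvr2b (0.43), which rose as well. Fstl1, a secreted follistatin-like antagonist, rose by 1.88 ± 0.22, while the latent TGF-beta binding protein genes Ltbp4, Ltbp1 and Ltbp3 fell by 0.57, 0.53 and 0.37. In the Wnt list, Lgr6, Cd44, Wnt10b and Sox9 were lower (-1.08 to -0.67) and Fzd2 was higher (0.77) of 17, with 0 calls when arrays were scaled to the median.

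Genes of antigen presentation through MHC class I were higher in CEACAM1-S cells. The immunoproteasome cuts proteins into peptides, the TAP transporter and ER chaperones load them, and class I heavy chains show them to CD8 T cells. Of 22 tested genes, 12 were higher and 0 lower, with a median of 0.40. The largest rise was that of Fcgrt (2.47), the Fc receptor chain described above, which the list counts with the class I genes. Psmb9, an immunoproteasome subunit, read 8.11, 8.11, 8.61 and 7.90 in CEACAM1-S cells, against 6.73, 6.84, 6.60 and 6.73 in control cells. Psmb8 read 11.05, 10.93, 11.19 and 11.09 in CEACAM1-S cells, against 10.17, 10.15, 10.17 and 10.20 in control cells. The groups did not overlap for either gene, with rises of 1.46 ± 0.17 (adjusted p = 8.9e-07) and 0.89 ± 0.09 (adjusted p = 6.05e-08). Psmb10, the remaining catalytic subunit, rose by 0.65 with its brightest probe and by 0.90 with its other one. The proteasome activator genes Psme1 and Psme2 rose by 0.42 and 0.33, Tap2 by 0.53, the heavy chains H2-T10, H2-M3 and H2-K1 by 0.77, 0.73 and 0.39, and the chaperones Calr and Pdia3 by 0.83 and 0.36. Tap1 (0.54, adjusted p = 0.0537), B2m (0.20), H2-D1 (-0.05) and Nlrc5 (-0.20) did not pass.

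Interferon-inducible GTPases, which act against intracellular microbes, were higher for 6 of 8 tested genes. Of the 5 detected on all 8 arrays, 3 were higher and 1 was lower. Gbp2 read 8.45, 8.27, 8.44 and 8.55 in CEACAM1-S cells, against 6.62, 6.91, 6.75 and 6.63 in control cells, and rose by 1.70 ± 0.14 (3.25-fold, adjusted p = 1.97e-09). Gbp3, Ifi47, Gbp7, Igtp and Irgm2 rose by 0.93, 0.93, 0.67, 0.52 and 0.51. Gvin1, a large interferon-inducible GTPase, went the other way, at 5.86, 5.26, 6.07 and 5.45 in CEACAM1-S cells, against 7.35, 6.98, 7.25 and 7.14 in control cells, and fell by 1.52 (SE 0.19). Antiviral interferon-stimulated genes were mixed, with 11 higher and 5 lower of 34 and a median of 0.23. Usp18, Bst2 (tetherin), Lgals3bp and Ifit3 rose by 0.96, 0.85, 0.83 and 0.67, Ifitm3, Adar and Oasl1 fell by 0.51, 0.46 and 0.58, and Isg15 (0.12) and Stat2 (0.14) did not pass. When arrays were scaled to a common median, 2 class I genes, 2 GTPases and 1 antiviral gene were higher, and on the dimmer arrays 8, 3 and 6. The 5 antiviral falls numbered 2 without CEACAM1-S array 1 or 3 and 3 without CEACAM1-S array 4 or any 1 control array.

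The promoters of the interferon-inducible GTPases are shown because 5 of the 6 that rose hold the core of the interferon-stimulated response element, that is GAAA, any 2 bases and GAAA again on either strand, within 250 bases before to 50 bases after the annotated start. The same letters occurred in 3.65% of the 7088 tested genes with a promoter sequence and in 3.44% of all 32851 promoters. A match is a description of the letters and not a binding site. Several motifs were searched in the promoters of every list, and those not shown are not described here. Matches in the GTPases that did not rise are not given either. In the sequences below, from RefSeq on GRCm38.p6, the last base precedes the start site, the strand is that of the gene and capitals mark the match; that of Gbp3 joins 2 overlapping matches.
Gbp2, chr3:142620463-142620662, plus strand: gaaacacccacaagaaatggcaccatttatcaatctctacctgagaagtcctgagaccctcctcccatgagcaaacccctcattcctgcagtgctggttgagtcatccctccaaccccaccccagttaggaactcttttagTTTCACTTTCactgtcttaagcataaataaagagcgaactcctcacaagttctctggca
Gbp3, chr3:142559844-142560043, plus strand: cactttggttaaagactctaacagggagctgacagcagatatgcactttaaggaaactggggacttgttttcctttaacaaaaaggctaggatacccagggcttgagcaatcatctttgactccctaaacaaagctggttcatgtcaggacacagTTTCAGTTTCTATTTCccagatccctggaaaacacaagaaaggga
Igtp, chr11:58199356-58199555, plus strand: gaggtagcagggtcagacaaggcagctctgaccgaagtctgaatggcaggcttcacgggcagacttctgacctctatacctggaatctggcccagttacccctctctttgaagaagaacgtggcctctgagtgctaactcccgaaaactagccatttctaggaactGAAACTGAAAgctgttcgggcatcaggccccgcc
Among the 12 class I genes that rose, 10 had a promoter sequence and 1 of those, Psme1, held the core; B2m and H2-T23, which did not pass, held it too. In the antiviral list, the core was in 5 of 9 promoters of higher genes, 1 of 5 of lower genes and 6 of 14 of genes that did not pass.

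Secreted immune signals were split. Of 12 tested chemokine genes, 4 were higher and 6 lower, against 2 higher and 3 lower on the dimmer arrays and 1 higher and 2 lower with scaling to the median. Ccl7, a monocyte attractant, read 8.77, 8.79, 8.80 and 8.81 in CEACAM1-S cells, against 7.22, 7.09, 7.18 and 7.22 in control cells, a rise of 1.62 ± 0.15 with almost no spread within either line. Ccl9 and Ccl2, which also attract monocytes, rose by 1.07 and 0.70, and Cx3cl1 by 0.51. Ccl5, a T cell attractant, was at 6.64, 6.74, 6.64 and 6.48 in CEACAM1-S cells, against 7.74, 7.74, 7.35 and 7.59 in control cells and fell by 0.98, as did Cxcl16 (-0.77), Ccl27a (-0.68), Cxcl10 (-0.67) and Cxcl1 (-0.51), and Ccl4 was detected on no CEACAM1-S array, at least 1.72-fold lower. Il15, a growth factor of NK and CD8 T cells, rose by 1.24 ± 0.17, at 6.65, 6.70, 6.81 and 6.94 in CEACAM1-S cells, against 5.17, 5.54, 5.66 and 5.76 in control cells, while another probe of Il15, at 0.27, did not pass; its receptor chain gene Il15ra rose by 0.59. Il6st, the shared signalling chain gp130, rose by 1.01 while its ligand genes Lif and Il11 fell by 0.85 and 0.69. The interferon-gamma receptor chains parted, with Ifngr1 higher by 0.66 and Ifngr2 lower at -0.57. Among checkpoint genes, Cd276 (B7-H3, on chromosome 9) rose by 0.92 and Cd274 (PD-L1), at 0.02, did not pass.

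The folding machinery of the endoplasmic reticulum was higher in CEACAM1-S cells, at 14 genes higher and 1 lower of 24 with a median of 0.40. Sdf2l1, a chaperone of the ER lumen, read 9.05, 8.57, 8.63 and 9.02 in CEACAM1-S cells, against 7.11, 7.51, 7.30 and 7.43 in control cells. Selenos, part of the retrotranslocation complex, read 11.31, 11.14, 11.25 and 11.37 in CEACAM1-S cells, against 10.03, 10.32, 10.27 and 10.10 in control cells. These rose by 1.48 ± 0.14 (adjusted p = 5e-08) and 1.08 ± 0.09 (adjusted p = 7.79e-09). The protein disulfide isomerase gene Pdia6 rose by 1.05, Sec61b, a subunit of the translocon, by 0.86, Calr by 0.83, Hyou1, Creld2, Dnajc3 and Pdia4 by 0.82, 0.77, 0.76 and 0.62, and Ostc, Hsp90b1, Pdia3, Xbp1 and Edem2 by 0.56 to 0.31. The sensor gene Ern1 (IRE1 alpha) was lower, at -0.72, and Atf6 (-0.10) and Hspa5 (BiP, 0.57, adjusted p = 0.104) did not pass. Hspa5 was low and scattered, at 4.88, 5.99, 5.22 and 5.41 in CEACAM1-S cells, against 5.51, 4.47, 4.61 and 4.63 in control cells. Scaling to the median gave 4 rises, and the dimmer arrays 8.

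Promoters of this list are shown for the ER stress response element (ERSE), that is CCAAT, any 9 bases and CCACG on either strand, which occurred in 0.169% of the tested genes, 12 of 7088. Of the 12 higher genes of the list with a promoter sequence, Calr, Creld2, Dnajc3, Hsp90b1 and Pdia6 held it, as did 2 of the 8 that did not pass, Hspa5 and Syvn1. Capitals mark the match, and the window and source are as above.
Pdia6, chr12:17266389-17266588, plus strand: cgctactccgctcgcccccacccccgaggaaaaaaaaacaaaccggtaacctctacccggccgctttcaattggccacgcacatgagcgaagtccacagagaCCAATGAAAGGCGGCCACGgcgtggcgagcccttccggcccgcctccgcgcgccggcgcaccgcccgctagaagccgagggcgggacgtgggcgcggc
Creld2, chr15:88819446-88819645, plus strand: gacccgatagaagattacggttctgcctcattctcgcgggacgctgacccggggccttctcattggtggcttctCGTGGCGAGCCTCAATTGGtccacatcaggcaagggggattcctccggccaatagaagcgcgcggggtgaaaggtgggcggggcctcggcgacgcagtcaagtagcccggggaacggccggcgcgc
Hsp90b1, chr10:86705445-86705644, minus strand: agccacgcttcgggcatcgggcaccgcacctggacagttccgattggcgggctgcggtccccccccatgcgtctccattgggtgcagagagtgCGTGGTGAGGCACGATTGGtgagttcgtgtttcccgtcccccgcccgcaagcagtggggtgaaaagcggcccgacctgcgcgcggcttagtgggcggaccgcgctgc
Calr, chr8:84846932-84847131, minus strand: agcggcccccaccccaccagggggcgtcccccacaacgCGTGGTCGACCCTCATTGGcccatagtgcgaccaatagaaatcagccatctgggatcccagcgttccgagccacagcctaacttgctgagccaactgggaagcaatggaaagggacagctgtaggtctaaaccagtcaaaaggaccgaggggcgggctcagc

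Targets of ATF4, the factor of amino acid and integrated stress, were lower more than higher. Of 26 tested, 10 were lower and 1 higher, with a median of -0.16. Chac1, which degrades glutathione, read 11.69, 12.02, 11.59 and 11.81 in CEACAM1-S cells, against 12.72, 12.55, 12.56 and 12.61 in control cells. Chac1 fell by 0.83 (SE 0.09, adjusted p = 5.41e-07), Ppp1r15a (GADD34) by 0.92 and Sesn2 by 0.97, whereas Ddit3 (CHOP) was higher at 0.52 and Atf4 (0.13), Asns (-0.08) and Trib3 (0.05) did not pass. Ribosome biogenesis genes, which build ribosomes in the nucleolus, were lower for 10 and higher for 0 of 35, with a median of -0.29. Nop56, a core protein of box C/D particles, was at 11.55, 11.46, 11.37 and 11.54 in CEACAM1-S cells, against 12.17, 12.21, 12.26 and 12.07 in control cells, and fell by 0.69 (SE 0.09, adjusted p = 2.48e-06). The other falls were Utp4, Utp14a, Nop2, Wdr74, Nop58, Rrp12, Wdr43, Npm1 and Nip7, between -0.63 and -0.29, and Ncl (nucleolin) at -0.37 did not pass. Scaling to the median gave 0 falls in either list, the dimmer arrays gave 4 and 2, and the ATF4 falls numbered 6 without CEACAM1-S array 2.

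Cell cycle genes included 12 higher and 2 lower of 45, with 6 higher on the dimmer arrays and 0 with scaling to the median, and the licensing genes Mcm2 to Mcm7 that were tested did not pass (-0.09 to 0.13). Kif23 (0.90), Cdc6 (0.63), Cdc25c and Plk1 (both 0.55) led the rises, while the G1 cyclin gene Ccne1 fell by 1.00, at 4.62, 5.04, 4.90 and 4.92 in CEACAM1-S cells, against 6.10, 5.70, 5.40 and 6.27 in control cells, and the mitotic regulator gene Foxm1 by 0.61 (SE 0.09), at 9.13, 9.19, 9.19 and 9.27 in CEACAM1-S cells, against 9.76, 9.78, 9.89 and 9.78 in control cells. The Kif23 probes disagreed, with the others at 0.48, 0.19 and -0.29, and the Cdc6 call was lost under 7 alternatives. Kif23 lies on chromosome 9, and 2 other rises lie in the first 60 Mb of chromosome 5. The list held 9 rises without the genes of chromosomes 5 and 9. The p53 targets split evenly, at 5 higher and 5 lower of 20, with 2 and 2 on the dimmer arrays and 1 and 0 with scaling to the median. The falls numbered 3 without CEACAM1-S array 3. Sesn1 (sestrin 1) read 8.20, 8.21, 8.22 and 8.21 in CEACAM1-S cells, against 6.79, 7.08, 7.26 and 7.13 in control cells, and rose by 1.15, and the death receptor gene Fas rose by 1.13. Cdkn1a (p21) fell by 0.84 (SE 0.11), at 9.24, 9.13, 9.07 and 9.14 in CEACAM1-S cells, against 10.13, 10.02, 10.04 and 9.76 in control cells.

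Oxidant defence genes numbered 13 higher and 1 lower of 33, with 7 higher on the dimmer arrays and 3 with scaling to the median. Gstm2, a glutathione transferase, read 9.13, 8.97, 8.76 and 9.15 in CEACAM1-S cells, against 7.11, 7.27, 6.94 and 6.94 in control cells, and rose by 1.94 ± 0.13 (adjusted p = 7.98e-11). Gsta4 (1.51), Keap1 (0.92), Gpx1 (0.74) and Me1 (0.55) rose and lie on chromosome 9, Gstm1 (0.96, or 0.30 with its other probe, which did not pass) and Nqo1 (0.76) lie elsewhere, and Hmox1 (0.03) and Nfe2l2 (-0.03) did not pass. Prxl2a was scattered in CEACAM1-S cells, at 6.24, 8.27, 5.81 and 6.68 in CEACAM1-S cells, against 5.28, 5.35, 5.42 and 5.07 in control cells. Glycolysis and hypoxia genes were lower for 9 and higher for 4 of 27, with 5 lower and 1 higher on the dimmer arrays and 0 of either with scaling to the median. The rises Pfkfb4 and Pkm lie on chromosome 9, and 2 rises were counted without the genes of chromosomes 5 and 9. Ldha, Pgk1, Pdk1, Slc16a3 and Slc2a1 were lower (-0.52, -0.60, -0.49, -0.63 and -0.31), as were Ndrg1 (-0.87), Ankrd37 (-0.79), Hif1a (-0.63) and Pfkl (-0.33), and Egln3, an oxygen-sensing prolyl hydroxylase, was higher at 0.89. Sterol synthesis genes numbered 7 higher and 0 lower of 20, led by Scap (0.78), Insig1 (0.69) and Mvd (0.68). Scap, Insig1, Mvk and Cyp51 lie on chromosomes 5 and 9, and 3 rises were counted without those chromosomes, 2 on the dimmer arrays and 0 with scaling to the median. Respiratory chain genes numbered 11 higher and 1 lower of 63, with 7 higher on the dimmer arrays and 1 with scaling to the median. The rises Atp5l, Cox5a, Cox7a2 and Uqcrc1 lie on chromosome 9, and the list held 7 rises without the genes of chromosomes 5 and 9. Over all genes, 12% were higher and 11.3% lower.

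In the remaining lists, few genes were tested or few passed. Of 18 heat shock genes, Cryab (alpha B-crystallin, on chromosome 9) and Ahsa1 were higher, at 2.20 and 0.54, and the Ahsa1 call was lost under 9 alternatives. Zinc transport genes gave 3 rises of 16, with Slc39a11 (0.63) and Slc39a7 (0.47) beside Slc39a4, while Mt1 and Mt2 (metallothioneins, -0.03 and 0.33) did not pass. The Slc39a7 call was lost under several alternatives, and another of its probes, at 0.20, did not pass. The dimmer arrays gave 2 rises in this list, and scaling to the median gave 1. Of the clock genes, Dbp, a clock output factor, was higher at 9.46, 10.64, 9.45 and 9.40 in CEACAM1-S cells, against 7.88, 8.30, 8.30 and 8.58 in control cells, Bhlhe40 was higher (0.79), and Csnk1e, Ciart and Clock were lower (-0.81 to -0.63) of 13, so that 38.5% of the list passed, against 23.3% of all genes; scaling to the median gave 1 higher and 0 lower. Sis (sucrase-isomaltase, a brush border enzyme) read 6.64, 6.25, 6.52 and 6.64 in CEACAM1-S cells, against 4.88, 5.14, 4.71 and 4.41 in control cells, the only rise among 6 gut lineage genes. Of the secretory gut cell markers, Clca1 (0.05) and Dclk1 (-0.01) were tested and did not pass, and of the immune markers Cd14 fell by 1.01 and Csf1r (-0.05) did not pass. Serpinb6a, a protease inhibitor, fell by 0.62.

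The higher genes were unevenly spread over the chromosomes. On chromosome 9, 231 of 490 tested genes were higher (47.1%) and 10 lower (2.04%), 415 had a difference above 0, and the median difference was 0.38, a 1.3-fold higher signal. The median over its genes, taken as each array minus the control mean, was 0.43, 0.32, 0.41 and 0.42 on the CEACAM1-S arrays, against -0.01, 0.03, 0.04 and -0.04 on the control arrays. Every 20 Mb window of the chromosome had a positive median, between 0.29 and 0.48. On chromosome 5, the first 60 Mb held 75 higher genes of 155 (48.4%), with a median of 0.38, and the rest of the chromosome had a median of -0.05. As wholes, the other 18 chromosomes had medians between -0.06 and 0.01 and shares of higher genes between 6.82 and 13%. Within them, the end of chromosome 14 stood out: its 32 tested genes from 80 Mb on, a stretch chosen after its values were seen, had a median of 0.32, with 11 higher and 0 lower, in windows of 6 to 15 genes with medians of 0.43, 0.29 and 0.31. Chromosome 9 thus held 22.1% of all higher genes and the first 60 Mb of chromosome 5 held 7.18%.

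The same regions were read in the CEACAM1-L cells, which share the control arrays: there the median difference from control was 0.06 on chromosome 9 and 0.53 in the first 60 Mb of chromosome 5, with 0.34 at the end of chromosome 14, and CEACAM1-S minus CEACAM1-L was 0.31 on chromosome 9 and -0.18 in the first 60 Mb of chromosome 5. Gene dosage was not measured. The largest chromosome 9 differences were those of Cryab (2.20), Islr (1.97), Casp1 (1.85), Uba7 (1.68) and Gsta4 (1.51), well above the median of the chromosome. Casp1, the inflammasome protease, read 10.83, 10.93, 11.16 and 10.96 in CEACAM1-S cells, against 9.13, 8.96, 9.34 and 9.05 in control cells, and Uba7, the activating enzyme of ISG15, read 9.35, 8.82, 9.33 and 9.39 in CEACAM1-S cells, against 7.40, 7.55, 7.70 and 7.52 in control cells. No tested member of the class I, antiviral, GTPase, chemokine, ATF4 or Wnt lists lies on chromosome 9 or in the first 60 Mb of chromosome 5. This holds for the lists alone, and Casp1 and Uba7 are in none of them. Without the genes of chromosomes 5 and 9, an alternative chosen after seeing the data, 2506 probes passed, 1113 higher and 1393 lower.

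**Figure D4:**
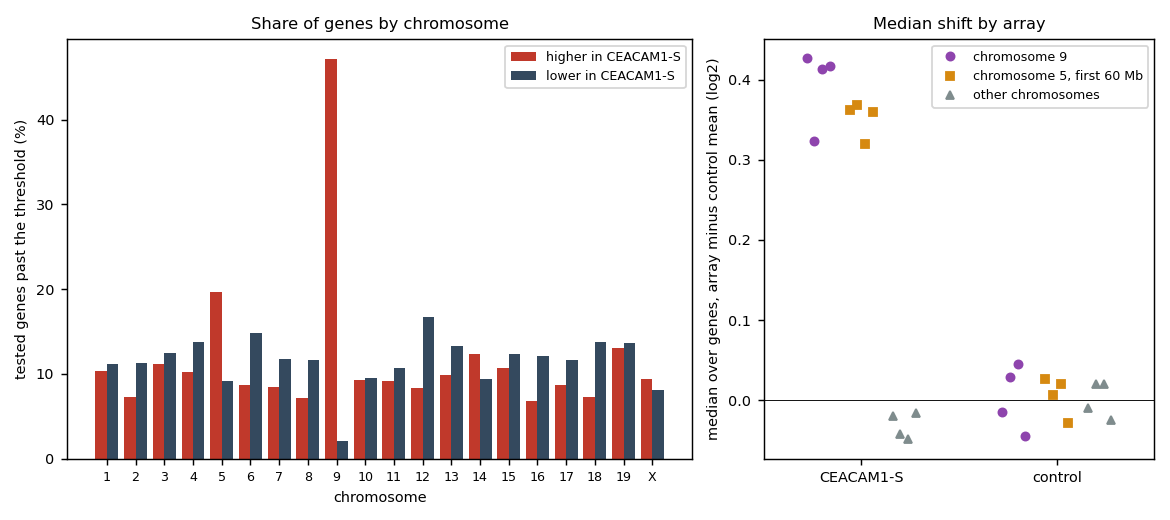
Left, the share of tested genes (%) on each chromosome that were higher (red) or lower (dark blue) in CEACAM1-S cells; chromosome 9 stands out at 47.1% higher and 2.04% lower. Right, for each CEACAM1-S and control array, the median over genes of the array's log2 value minus the control mean, for chromosome 9, the first 60 Mb of chromosome 5 and the other chromosomes (without chromosome 5); the CEACAM1-S medians for chromosome 9 sit between 0.32 and 0.43.

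Set directly against the CEACAM1-L cells, CEACAM1-S cells differed at 3521 probes (23%), 1781 higher (11.6%) and 1740 lower (11.4%). This comparison shares the CEACAM1-S arrays with the one against control, so the values of both are given side by side. Napsa, Mfsd6 and Pla1a were higher than in CEACAM1-L cells by 3.74, 2.81 and 1.95, and higher than in control cells by 3.10, 2.41 and 2.31. Ceacam1 itself was 1.78 ± 0.17 higher than in CEACAM1-L cells, with group means of 8.33 in CEACAM1-S, 6.55 in CEACAM1-L and 4.92 in control cells. Sis, Arhgef6, Serpinf1 (the secreted inhibitor PEDF) and Ccl7 were higher than in CEACAM1-L cells by 1.76, 1.51, 1.48 and 1.31, and higher than in control cells by 1.73, 1.62, 1.35 and 1.62; the other probe of Serpinf1, at 0.03 against control, did not pass. Neto2, an auxiliary receptor subunit, and Cldn6 were lower, by -2.25 and -1.97 against CEACAM1-L and -1.57 and -2.56 against control. For Ptpn6 the differences were 1.14 and 1.08, and for Tgfbr2 1.57 and 1.25. Other genes with large differences from control did not pass against CEACAM1-L, where the differences of Ogn, S100a7a, Pate14, Upp1, Klf2 and Hbegf were -0.04, 0.14, -0.01, 0.01, 0.30 and -0.10. For Dbp, Prxl2a and Cryab the difference from CEACAM1-L was negative, at -2.23, -3.22 and -1.21, while that from control was positive.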

How the data were processed

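Cells were lysed in Trizol, and cRNA was biotin-labelled and hybridised to Illumina mouse bead arrays, per the labels' protocols. The deposited table holds each probe's intensity, not normalized, with the detection p-value, per the file headers. A deposited table of log2 values processed by the authors served as an alternative; lumi 2.6.0 is named in the submitters' processing notes, with no role. The sources used here do not give the scanner. Intensities of all 12 arrays were background-corrected and quantile-normalized with limma 3.58.1 (R 4.3.3; neqc, normexp, offset 16). Probes detected (p-value below 0.05) on 4 or more of the 8 arrays were fitted with 1 mean per line (lmFit, eBayes with trend), and adjusted by Benjamini-Hochberg over all 15328; the threshold was 0.05. The method was tested on simulated data. The number of arrays limits precision. Gene symbols came from the platform annotation; of 45281 probes, 34885 have 1 symbol, 18 several and 10378 none. Named genes were Ceacam1, Dcn, Epha2, the 15 largest changes each way with groups apart, up to 4 of each list, 6 genes each way detected in a single line, and 10 apart from both other lines; others are given as list members or chromosome 9 genes. The members and lists were chosen with earlier results of these data known. Same-numbered arrays of the 2 lines deviated oppositely (r between -0.21 and -0.102), and the numbers were not taken as pairs. Each same number joins a brighter and a dimmer array. Brighter arrays deviated oppositely from dimmer ones throughout (r between -0.263 and -0.073), so these values cannot decide whether the numbers are pairs. The alternatives were other background corrections, scalings and filters, 1 probe per gene, the brighter or dimmer arrays, and leaving out each array.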

Additional observations from a re-analysis of the deposited data

Results flagged for a closer look

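In groups of 4 arrays, 23 of 324 groups of the genes examined one by one had 1 array set apart from the others by a larger part of the group's range than Dixon's critical value allows, which chance gives in about 1 of 20 groups. Every value is a normalized log2 signal of the array that stood apart. On CEACAM1-S arrays, the low ones were Fcgrt at 7.92 on array 2 and Pate14 at 4.23, Il6st at 7.14 and Slc39a7 at 9.94 on array 4. The high ones were Dbp at 10.64 on array 2 and, on array 3, Plaur at 7.45, Dusp14 at 7.69, Tgfb3 at 8.58 and Pkp3 at 6.32. On control arrays, the low ones were Mvd at 6.37 on array 1, Tigit at 8.27 on array 2, Ahsa1 at 8.13 on array 3, and Tgfbi at 5.03 and Gbp3 at 4.81 on array 4. The high ones were Ctnnb1 at 9.79, Hif1a at 7.15 and Tgfbr2 at 10.96 on array 1. Control array 2 was high for Nipal1 at 7.08, Ccl4 at 5.76 and Egln3 at 8.22. Control array 3 was high for Acot1 at 4.61, and control array 4 for Btn1a1 at 7.13 and Csf2 at 6.44. Whether the CEACAM1-S difference from control itself differed between the brighter and the dimmer arrays was tested by an interaction term in limma: 0 probes passed, with 543 at an unadjusted p under 0.05.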

How the results depend on the processing

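Probes that differed from control numbered 3129, with 385 under scaling to the median, 1212 on the dimmer and 2668 on the brighter arrays; the cause of the gap between the arrays was not tested. The median SE was 0.33 with scaling to the median, against 0.165. Differences of at least 2-fold fell to 115 without background correction and 92 with the authors' processed values, against 357; both give smaller differences, by a median factor of 0.663 and 0.571 over the named genes. Against CEACAM1-L, 3521 probes became 387 with scaling to the median, 865 on the dimmer and 3671 on the brighter arrays, and 2337 with 1 probe per gene, which tests fewer probes. Leaving out 1 array gave 2548 to 2898 probes against control, 350 to 383 of 2-fold, 2823 to 3692 against CEACAM1-L, and 3.28 to 3.57 for Ceacam1. With the replicate number as a block, 2829 probes passed, and that block ended the calls of 3 named genes. With the brighter and dimmer arrays as blocks, 3761 probes passed. Of 162 probes read one by one (158 of named genes), 73 kept their side of the threshold throughout, 54 lost it by scaling to the median alone and 35 under another alternative, and no called one changed sign. Clca1, which did not pass, was 0.05, and -0.10 on the brighter arrays. Not every alternative measured all 162. Signal near background limits the dimmest members.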
